A study of Rattus norvegicus with 10 samples.

Results

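The comparison set 3 male Lewis rats with high acoustic startle scores, rats 6, 7 and 9, against 3 with low scores, rats 1, 2 and 4, and asked which transcripts of the prefrontal cortex differed between them. Rats were chosen by the startle score in the labels, above 850 for the high group and below 520 for the low group. This took 6 of the 10 rats of the study. The 4 rats with scores in between were left out of the main tests and entered alternative fits over all 10 rats. They also counted in the means that picked probe sets and brighter genes, and in the centring of list scores. Lewis is an inbred strain, so the rats were near identical in genotype, and none had been treated. All were males of the same weight class, singly housed, and killed 6 days after their last behavioural test. Ages were not given. The tissue was frontal cortex, areas Fr1 and Fr2 anterior to bregma, with the olfactory bulb cut away. The RNA of each rat was hybridised to 1 Affymetrix rat expression array. Values are log2 levels per probe set, a set of short probes against one transcript, so a difference of 1 is a doubling. The groups are the upper and lower ends of natural variation in a score, not lines bred or manipulated for startle.

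The acoustic startle response is a fast contraction of face and body muscles to a sudden loud sound, carried by a short circuit in the brainstem. Its size is modulated from the forebrain: fear and stress enlarge it through the amygdala and corticotropin-releasing hormone, and the prefrontal cortex, with its dopamine, glutamate and GABA signalling, acts on such modulation and on the gating of startle by a weaker preceding sound, called prepulse inhibition. The genes described below were therefore ordered from fast inhibition and excitation, over modulators and stress, to activity and clock genes, energy metabolism and cell types.

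Startle scores were 855, 943 and 927 in rats 6, 7 and 9, against 394, 363 and 510 in rats 1, 2 and 4. Means were 908 ± 46.6 in high startle rats and 422 ± 77.7 in low startle rats (SD, n = 3 each). These scores chose the groups and were not tested. The middle rats scored 624 to 765. No unit was stated for any score. Locomotion separated along with startle: it was 10692, 13696 and 10284 in the high startle rats, against 17045, 13933 and 17987 in the low startle rats. The groups did not overlap, although rats 7 and 2 lay close together. High startle rats averaged 11558 ± 1863 and low startle rats 16322 ± 2121 (SD, n = 3 each; two-sided exact permutation p = 0.1, the smallest that 3 against 3 can give, and 0.3 adjusted over 3 scores). A gene difference between these groups therefore cannot be told apart from a difference with locomotion. Sugar feeding was 1.25 ± 0.79 in high startle rats and 1.70 ± 0.23 in low startle rats (exact permutation p = 0.4, adjusted p = 0.5). Prepulse inhibition was 29.8 ± 6.57 in high startle rats and 20.0 ± 19.6 in low startle rats (exact permutation p = 0.5, adjusted p = 0.5), with rats 1 and 2 at 6.8 and 10.7 and rat 4 at 42.5.

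**Figure D1:**
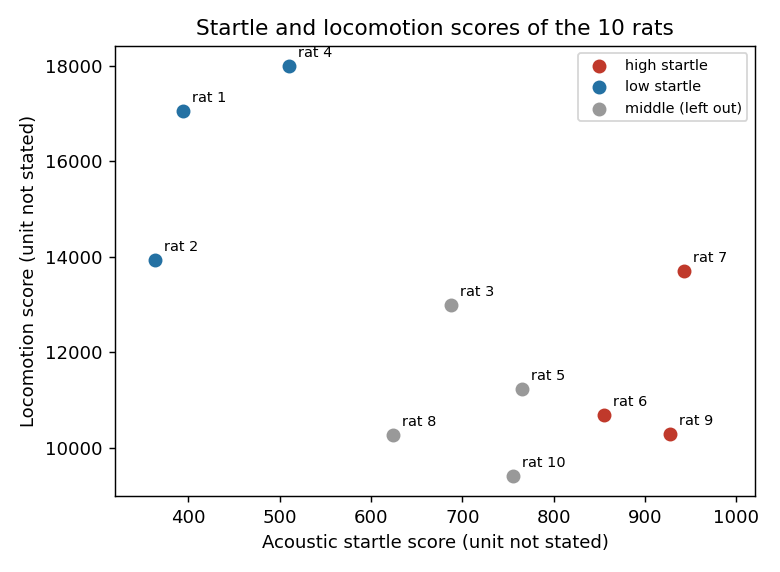
Each point is 1 rat, with its acoustic startle score across and its locomotion score upward (units not stated). The 3 high startle rats had startle scores above 850 and locomotion scores of 10284 to 13696, the 3 low startle rats had locomotion scores of 13933 to 17987, and the 4 middle rats lay at 9420 to 12985.

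The 6 arrays were alike, with correlations between arrays of 0.9958 to 0.9986 over all probe sets that were not controls. Hybridisation spike-ins, bacterial transcripts added at the array step, averaged 11.5, 11.6 and 11.3 log2 in rats 6, 7 and 9, against 11.7, 11.8 and 11.6 in rats 1, 2 and 4. Every high startle value lay below every low startle value. Their part in the gene results was not tested. The 3' over 5' difference of the actin controls, a sign of RNA integrity, overlapped at 2.29, 2.59 and 2.36 log2 in high startle rats and 2.36, 2.38 and 2.22 in low startle rats. That of the Gapdh controls was 0.14, 0.32 and 0.25 in high startle rats and 0.22, 0.17 and 0.06 in low startle rats. Rat 7 was highest of the 10 rats for both, and the part of this in its gene values was not tested. Slc17a7, the vesicular glutamate transporter of cortical excitatory neurons, was at 12.85, 12.60 and 12.76 log2 in the high startle rats and 12.50, 12.86 and 12.74 in the low startle rats, so this 1 marker was high in all 6. It was chosen as a tissue check after its values were seen. One rat of each group also carried raised levels of genes of striatal projection neurons: Drd1, the D1 dopamine receptor, was at 6.28, 9.60 and 5.98 log2 in rats 6, 7 and 9, against 6.23, 5.91 and 9.06 in rats 1, 2 and 4. Results were therefore also computed without rats 4 and 7.

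Over 14217 genes, 0 passed an adjusted p of 0.05 in limma, which is 0% of those tested. The lowest adjusted p was 0.926, and the count stayed at 0 in limma under all 15 alternative settings. Without adjustment, 315 genes had p under 0.05, 2.22% of those tested, where no difference at all would give about 5%. Of these, 108 (0.76%) were higher and 207 (1.46%) lower in high startle rats. This split depended on scaling: after a further quantile normalization of the 6 arrays it was 350 higher and 80 lower, so the direction of the balance is not a result. All 3 high startle values lay above all 3 low startle values for 371 genes (2.61%) and below them for 384 (2.7%), 755 genes (5.31%) in either direction. The median SE of a difference was 0.06 log2.

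The sign of the small differences went with the level of a gene. Among the 7108 genes in the brighter 50%, with a mean of at least 5.98 log2, 2879 (40.5%) were higher in high startle rats and 4225 lower, with a median of -0.02. Among the 7109 dimmer genes, 6035 were higher and 1073 lower, with a median of 0.01. Gene lists below are therefore read by their brighter members and set beside 40.5%. In bulk tissue such as this, fewer cells of a type and less RNA per cell cannot be told apart.

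**Figure D2:**
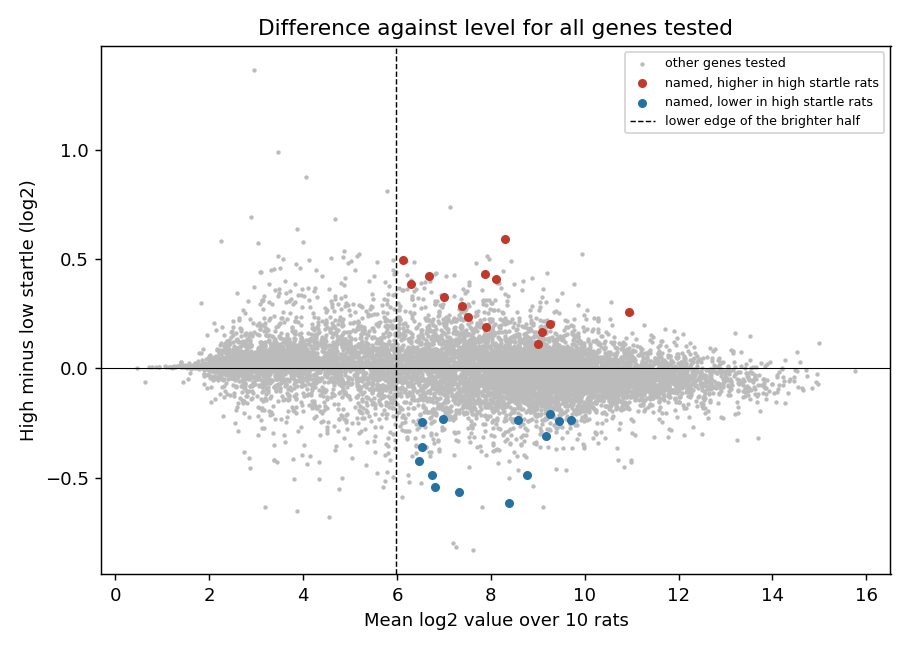
Each point is 1 of 14217 genes, with its mean log2 value over the 10 rats across and its high minus low startle difference (log2) upward; the dashed line at 5.98 is the lower edge of the brighter 50%, and the 28 coloured points are the named genes. Dim genes lie mostly just above 0 and bright genes slightly below it, and the 28 named genes do not stand outside the cloud of differences at their level.

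The genes of smallest p were picked among brighter genes whose groups did not overlap, 197 above (2.77% of these genes) and 328 below (4.61%). Since the rule asked for groups that do not overlap, that separation is a description. None of the 28 genes named by it passed the adjusted threshold, and each had an adjusted p of 0.926. The 95% intervals given with differences are limma's own for that gene, not widened for the number of genes tested.

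The higher genes of smallest p are given first, ordered by where their proteins act in the cell, with no test of shared function. Tmem33, an endoplasmic reticulum membrane protein, was at 8.07, 8.02 and 8.06 log2 in high startle rats, against 7.90, 7.84 and 7.83 in low startle rats. The difference was 0.19 ± 0.03 (SE, n = 3 each, 95% interval 0.11 to 0.27), but a second, dimmer probe set gave -0.07, so the 2 disagree. Sec63, part of the channel that moves proteins into the endoplasmic reticulum, was at 7.72, 7.65 and 7.74 log2 in high startle rats, against 7.47, 7.56 and 7.38 in low startle rats. Its difference of 0.23 ± 0.06 was opposed by 3 other probe sets. Copb1, a coat subunit of Golgi vesicles, was at 9.07, 9.09 and 9.10 log2 in high startle rats and 8.99, 8.97 and 8.97 in low startle rats, a tight separation of only 0.11 ± 0.02. Of the mitochondrial genes, the transporter Abcb8 was at 7.47, 7.57 and 7.52 log2 in high startle rats, against 7.20, 7.14 and 7.36 in low startle rats, a difference of 0.28 ± 0.07 and 1.22-fold (95% interval 0.12 to 0.45). Slc25a39, which brings glutathione into mitochondria, was at 9.33, 9.37 and 9.34 log2 in high startle rats and 9.15, 9.06 and 9.22 in low startle rats. Rat 4 was the nearest of its group to the high rats for both. Dele1, a mitochondrial stress sensor in human cells, differed by 0.17 ± 0.04, with its 2 other probe sets at -0.05 and near 0.

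Ctdsp1, a phosphatase that works with the repressor REST on neuronal genes, was at 7.28, 7.20 and 7.15 log2 in high startle rats, against 6.87, 6.76 and 7.02 in low startle rats. It was 1.25-fold higher (0.33 ± 0.07, 95% interval 0.14 to 0.51). Sparc, a secreted matrix glycoprotein, was at 11.14, 11.25 and 11.05 log2 in high startle rats and 10.85, 10.91 and 10.91 in low startle rats, and its second probe set had the same sign. The largest differences were less even between rats. Pdpn, a membrane mucin of glia and other cells, was at 8.45, 8.59 and 8.65 log2 in high startle rats, against 8.35, 7.24 and 8.32 in low startle rats. Its difference of 0.59 ± 0.32 (1.51-fold, 95% interval -0.21 to 1.39) came largely from rat 2 and was 0.23 without it. The same rat set the value of Cep57l1, a centrosome-related gene, at 6.24, 6.32 and 6.24 log2 in high startle rats against 5.98, 5.15 and 6.17 in low startle rats, with 0.50 ± 0.27 over all 6 and 0.19 without rat 2.

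The remaining higher genes of large difference were more even between rats. Inpp5a, which ends calcium release by removing a phosphate from inositol trisphosphate, was at 8.15, 8.17 and 8.05 log2 in high startle rats, against 7.43, 7.73 and 7.91 in low startle rats, 1.35-fold higher (0.43 ± 0.12, 95% interval 0.12 to 0.75). Slc31a1, the copper importer, was at 7.10, 6.97 and 6.74 log2 in high startle rats and 6.66, 6.38 and 6.50 in low startle rats (0.42 ± 0.12, 95% interval 0.13 to 0.71). Its 3 other probe sets had the same sign but were dim, at most 4.72 log2. Pmp22, a myelin protein best known from peripheral nerve, was at 8.19, 8.55 and 8.27 log2 in high startle rats and 7.99, 7.73 and 8.06 in low startle rats (0.41 ± 0.13). Tax1bp3, a protein made up of a PDZ domain, differed by 0.38 ± 0.13, with rat 7 at 6.70 and the other high startle rats at 6.30 and 6.32. Without rat 2 the differences of Pmp22 and Tax1bp3 were 0.31 each and no longer had an unadjusted p under 0.05 in limma, and Tax1bp3 also lost it without rat 1.

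The lower genes of smallest p separated as tightly. Scrn3, a secernin, had the smallest p of the named genes, at 6.39, 6.41 and 6.40 log2 in high startle rats, against 6.68, 6.67 and 6.58 in low startle rats (-0.24 ± 0.03, 95% interval -0.33 to -0.16). Ncoa6, a coactivator of nuclear receptors, was at 6.88, 6.90 and 6.88 log2 in high startle rats and 7.15, 7.15 and 7.06 in low startle rats (-0.23 ± 0.03, 95% interval -0.32 to -0.14). In both genes the 3 high startle rats lay within 0.02 log2 of each other as printed. Cstf2, a subunit of the factor that cleaves the 3' ends of messenger RNA, was at 8.50, 8.51 and 8.57 log2 in high startle rats, against 8.71, 8.80 and 8.77 in low startle rats. Its second probe set gave 0.03. Tbl1x, part of a corepressor complex of nuclear receptors, was at 9.71, 9.65 and 9.71 log2 in high startle rats and 9.97, 9.87 and 9.94 in low startle rats, and its 2 other probe sets, at -0.34 and -0.18, had the same sign.

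Rictor, the defining subunit of the second mTOR kinase complex, was at 9.33, 9.43 and 9.37 log2 in high startle rats, against 9.62, 9.67 and 9.56 in low startle rats (-0.24 ± 0.04, 95% interval -0.35 to -0.13). Rps6ka3, the kinase RSK2 of the ERK pathway, differed by -0.21 ± 0.04 at its brightest probe set, while 2 others went the other way. Selenoi, which makes the membrane lipid phosphatidylethanolamine, was at 6.56, 6.37 and 6.41 log2 in high startle rats and 6.87, 6.75 and 6.81 in low startle rats, 1.28-fold higher in low startle rats (-0.36 ± 0.06, 95% interval -0.51 to -0.21). Col25a1, a membrane collagen of neurons, was at 8.98, 9.14 and 9.10 log2 in high startle rats and 9.44, 9.38 and 9.33 in low startle rats (-0.31 ± 0.05). A second, dimmer probe set of Rictor gave 0.03. In Rictor, Selenoi and Col25a1 every high startle rat lay more than 0.1 log2 below every low startle rat.

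The largest lower differences were again less even. Tnrc6a, a core protein of microRNA silencing, was at 7.99, 7.66 and 8.42 log2 in high startle rats, against 8.70, 8.65 and 8.56 in low startle rats (-0.61 ± 0.19, 1.53-fold higher in low startle rats, 95% interval -1.10 to -0.13). The mean over all its probe sets differed by only -0.06. Gpr180, a membrane protein, was at 7.14, 6.87 and 7.27 log2 in high startle rats and 7.47, 7.93 and 7.56 in low startle rats (-0.56 ± 0.16, 95% interval -0.96 to -0.16). Clstn2, a synaptic membrane protein of the calsyntenin family, was at 6.85, 6.17 and 6.76 log2 in high startle rats, against 6.87, 7.21 and 7.34 in low startle rats, so rats 6 and 1 nearly met (-0.54 ± 0.22, 95% interval -1.09 to 0.01, and -0.33 without rat 7). Jag2, a Notch ligand, was at 6.80, 6.29 and 6.63 log2 in high startle rats and 7.37, 6.94 and 6.87 in low startle rats. Rbm15, part of the complex that methylates adenines in messenger RNA, was at 8.82, 7.76 and 8.89 log2 in high startle rats and 9.03, 8.95 and 8.96 in low startle rats. Its difference of -0.49 ± 0.32 rested on rat 7 and was -0.12 without it. The second probe set of Rbm15, nearly as bright, gave 0.04, so the sign depended on the probe set chosen. Myo10, a myosin of filopodia, was at 6.20, 6.36 and 6.31 log2 in high startle rats, against 6.96, 6.71 and 6.47 in low startle rats (-0.42 ± 0.13). In limma without 1 rat, the unadjusted call was lost for Tnrc6a (rat 1, 2 or 6), Jag2 (rat 1, 2, 7 or 9) and Myo10 (rat 2 or 6).

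**Figure D3:**
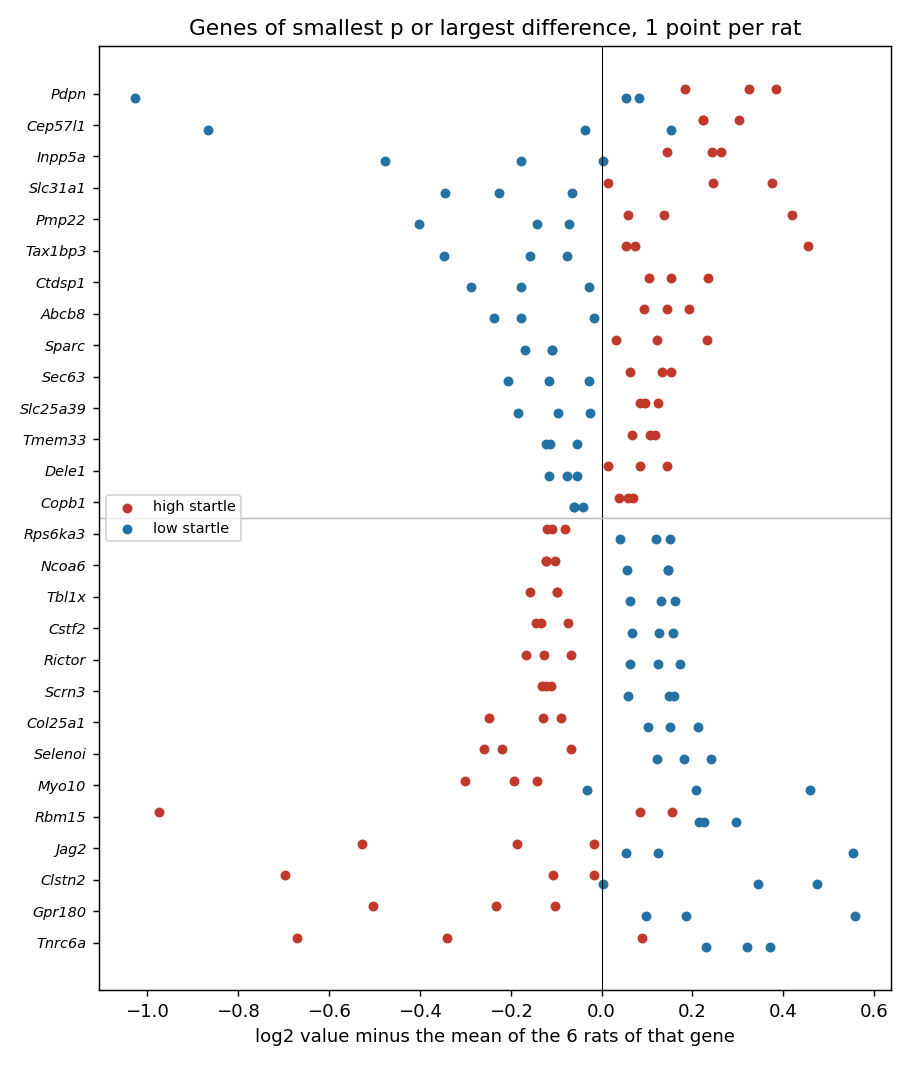
Each row is 1 named gene and each point 1 rat, plotted as its log2 value minus the mean of that gene over the 6 rats; genes higher in high startle rats are above the grey line and genes lower below it. Most genes show 2 separate sets of 3 points, while single low points stand apart for Pdpn and Cep57l1 (rat 2) and Rbm15 (rat 7).

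Of the 28 genes, 24 had an unadjusted p under 0.05. That p held under all 15 alternative settings for 8 of them: Ctdsp1, Abcb8, Slc25a39, Ncoa6, Cstf2, Selenoi, Rictor and Gpr180. Further probe sets existed for 20 of the 28 genes, all of the same sign for 12 and with some of opposite sign for 8. Some were dim: those of Inpp5a, Slc25a39 and Ctdsp1 lay at 2.10, 3.21 and 4.48 log2, with differences of 0.01, 0.02 and 0.06. Among dimmer genes 84.9% were higher, so a shared positive sign there says little. The second probe set of Sparc was bright, at 10.5 log2, with a difference of 0.17.

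The 4 middle rats took no part in the differences and p by which these genes were chosen. They did count in the means over 10 arrays that picked probe sets and brighter genes. Rats 5 and 10 had the higher startle scores among them, and rats 3 and 8 the lower. The sign of rats 5 and 10 minus rats 3 and 8 matched that of high minus low startle for 21 of the 28 named genes (75%), 12 of 14 higher and 9 of 14 lower ones. Over all genes it matched for 9233 of 14217 (64.9%), over those with unadjusted p under 0.05 for 180 of 315 (57.1%), and over those whose groups did not overlap for 436 of 755 (57.7%). The middle difference was positive for 9949 of all genes (70.0%) and for 4154 of the 7108 brighter genes. A match therefore came more easily for a higher gene than for a lower one. The 64.9% includes dim genes, while the named genes were all brighter ones. Ctdsp1 and Selenoi, for example, had differences of 0.20 and -0.18 log2 between the middle rats, while Scrn3 had 0.18 and Gpr180 0.27, against their sign in the 6 rats. A matching sign is not a graded level: the mean of the 4 middle rats lay between the group means for 19 of the 28 genes. For Selenoi it was 6.41 log2, below the means of both the high (6.45) and the low startle rats (6.81).

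Genes of fast inhibition mostly had negative differences in high startle rats. GABA is the main inhibitory transmitter of the cortex, made by the enzymes Gad1 and Gad2. Of 15 measured genes of GABA synthesis, transport and receptors, 2 were higher and 13 lower, with a median of -0.09 log2, and 1 of 13 brighter members (7.7%) was higher. Only Gad2 reached an unadjusted p under 0.05 among them. It was at 9.62, 9.77 and 10.07 log2 in high startle rats, against 10.08, 10.19 and 10.28 in low startle rats. The groups did not overlap, by 0.01 log2 between rats 9 and 1, and the difference was -0.36 ± 0.12 (95% interval -0.67 to -0.05, adjusted p = 0.926), 1.28-fold higher in low startle rats. Leaving out single rats gave -0.26 (rat 6) to -0.49 (rat 9), and the unadjusted call was lost without rat 2, 4, 6 or 7. Gad1, the more abundant message, was at 11.87, 12.18 and 11.85 log2 in high startle rats and 11.94, 12.03 and 12.17 in low startle rats, and overlapped (-0.08 ± 0.11). A second, dimmer probe set of Gad1 gave -0.51.

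Of the receptor subunits for GABA, Gabra5 and Gabra4 had negative differences whose 95% intervals just reached 0. Gabra5, of the extrasynaptic receptors, was at 10.74, 10.63 and 10.68 log2 in high startle rats, against 10.78, 10.92 and 10.76 in low startle rats (-0.14 ± 0.06). Gabra4, chosen after its values were seen, was at 8.34, 7.99 and 8.35 log2 in high startle rats and 8.38, 8.76 and 8.59 in low startle rats (-0.35 ± 0.14). After quantile normalization the list had a median of -0.04, with 4 of 15 members higher. The median was -0.16 without rat 1, -0.14 without rat 6 or rat 9 and -0.26 with the locomotion covariate over all 10 rats, and 6 of 15 members were higher without rat 2. In the middle rats 9 members were higher and 6 lower in rats 5 and 10. Interneuron markers gave 1 of 8 brighter members (12.5%) higher, with a median of -0.07. Over all 15 measured the median was -0.05 with 5 higher, but about 0 with 8 higher without rat 7 and about 0 with 7 higher without rat 4. Sst, the somatostatin gene, differed by -0.09 ± 0.08, and Pvalb, which marks fast-spiking interneurons, by -0.08 ± 0.15. Both groups overlapped for each. Corticotropin-releasing hormone, Crh, was dim at 4.26, 4.30 and 4.24 log2 in high startle rats and 4.02, 4.22 and 4.24 in low startle rats. For the glycine receptor and its scaffold, 2 of 5 brighter members were higher. Glrb, the anchoring beta subunit whose mutation in the mouse line spastic gives exaggerated startle, was at 12.09, 11.93 and 11.93 log2 in high startle rats, against 12.03, 12.25 and 12.13 in low startle rats (-0.15 ± 0.07, 95% interval -0.34 to 0.04). The 2 other, dimmer probe sets of Glrb gave -0.27 and 0.08. Slc6a9, the glial glycine transporter, was at 8.01, 7.98 and 7.85 log2 in high startle rats and 7.46, 7.42 and 8.01 in low startle rats, where rat 4 lay with the high rats (0.31 ± 0.17). Its 2 other probe sets had the opposite sign, at -0.23 and -0.01.

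Brighter genes of excitatory receptors and channels also mostly had negative differences, as did brighter genes in general, of which 40.5% were higher. The groups overlapped for every measured member of these lists. Of 20 brighter glutamate receptor and transporter genes, 6 (30.0%) were higher, with a median of -0.10 and 0 with p under 0.05 in limma. Gria1, an AMPA receptor subunit, was at 11.55, 11.41 and 11.68 log2 in high startle rats, against 11.98, 11.75 and 11.61 in low startle rats (-0.23 ± 0.12, 95% interval -0.52 to 0.06). Grin3a, an NMDA receptor subunit, differed by -0.18 ± 0.09 and Grin2a by -0.14 ± 0.16. The 2 other, dimmer probe sets of Grin2a gave -0.72 and 0.01. Sodium, calcium and HCN channel genes had 2 of 16 brighter members (12.5%) higher and a median of -0.10. Cacnb4, a calcium channel beta subunit, was at 8.39, 7.76 and 8.37 log2 in high startle rats and 8.31, 8.94 and 8.78 in low startle rats (-0.50 ± 0.24, 95% interval -1.11 to 0.10). Scn3b, a sodium channel beta subunit, differed by -0.15 ± 0.07. The median of this list over all 23 members was -0.05, and nearly 0 without rat 2. Potassium channels had 5 of 17 brighter members higher (29.4%), with Kcnk1 at -0.19 ± 0.11 and Kcna4 at -0.06 ± 0.04. After quantile normalization the median over all glutamate members moved from -0.08 to -0.03, with 12 of 26 higher. That of the sodium, calcium and HCN list moved to -0.005 (8 of 23 higher), and that of potassium channels from -0.02 to -0.007 (10 of 24 higher). The size of these medians therefore depended on scaling.

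Of the release machinery, 6 of 23 brighter genes (26.1%) were higher, with a median of -0.05. Nsf, the ATPase that takes SNARE complexes apart after vesicle fusion, was at 12.98, 12.73 and 12.92 log2 in high startle rats, against 13.10, 13.18 and 13.03 in low startle rats. Its groups did not overlap (difference -0.23 ± 0.08, 95% interval -0.42 to -0.03, adjusted p = 0.926), and the difference was -0.16 without rat 7. The unadjusted call was lost without rat 1 or rat 2. Cplx2, a complexin that clamps release, differed by -0.10 ± 0.05. Over all 27 measured members the median moved to about 0 without rat 2 or without rat 7. It was also about 0, with 13 of 27 higher, after quantile normalization and without rats 4 and 7.

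**Figure D4:**
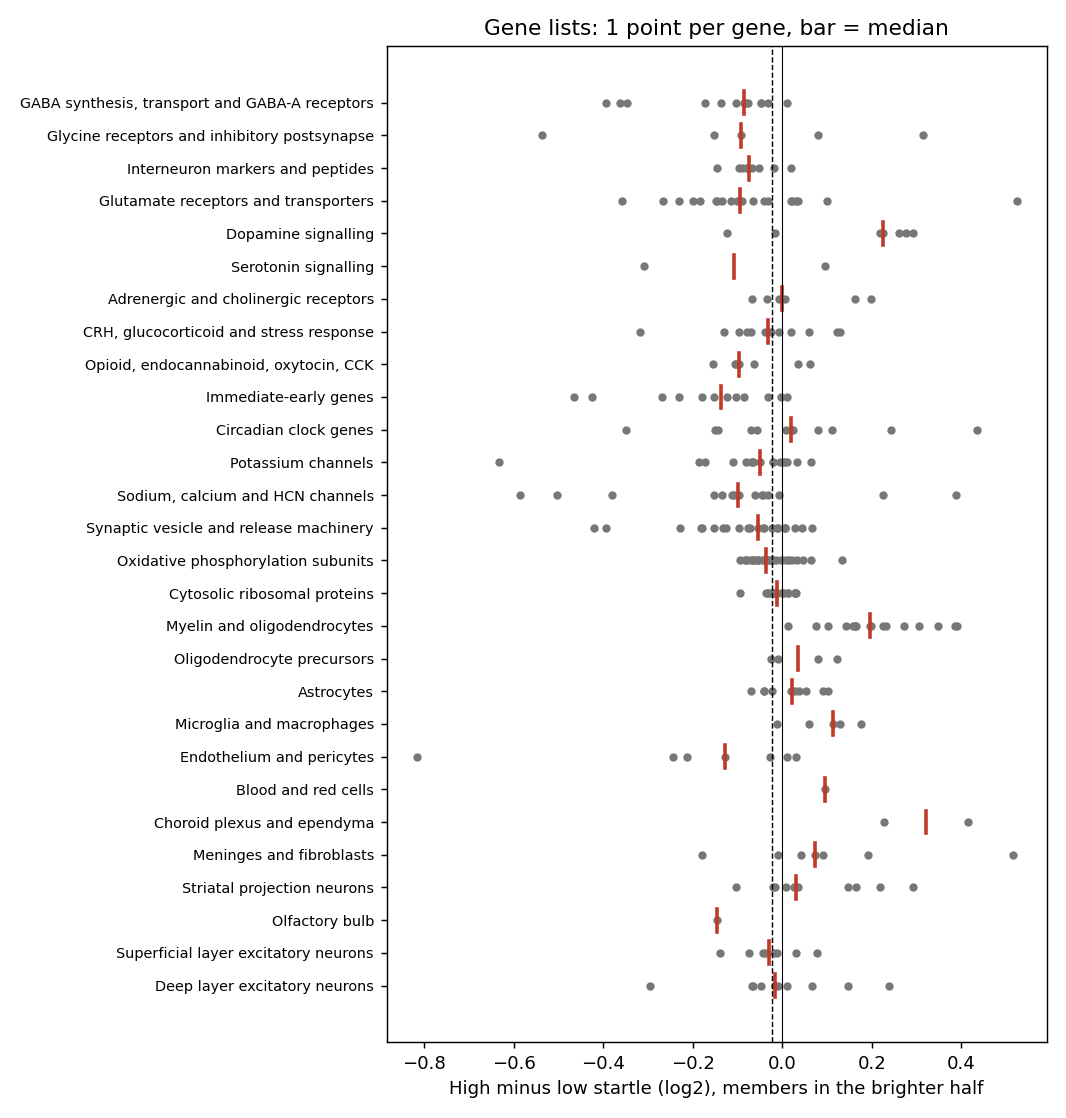
Each row is 1 gene list and each point 1 of its members in the brighter 50% of genes, at its high minus low startle difference (log2); red bars are medians, the solid line is 0 and the dashed line the median of all brighter genes, -0.02. Points of most lists straddle the dashed line, 12 of 13 GABA genes and 11 of 12 immediate-early genes lie below 0, and the 17 myelin genes lie above 0.

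Dopamine, serotonin, noradrenaline and acetylcholine genes were mostly dim in this tissue or highest in rats 7 and 4. Of 7 brighter dopamine genes, 5 were higher with a median of 0.23. Drd1, given above, had a difference of 0.22 ± 1.32. Gnal, the G protein of D1 signalling in striatum, was at 8.32, 9.19 and 8.21 log2 in high startle rats and 8.33, 8.01 and 8.71 in low startle rats, highest in rats 7 and 4. Drd2, the D2 receptor, was at 4.13, 7.57 and 4.08 log2 in high startle rats and 4.10, 4.05 and 6.16 in low startle rats. The median of all 13 was 0.01, and -0.08 without rat 7. Maob, which breaks down amines and is not a striatal marker, differed by -0.12 ± 0.12. Htr2a, the main excitatory serotonin receptor of the cortex, was at 8.40, 7.09 and 8.24 log2 in high startle rats and 8.04, 8.47 and 8.15 in low startle rats, lowest in rat 7 (-0.31 ± 0.37). Htr1b and Htr1a were dim, near 3 log2, with differences of 0.06 ± 0.03 and -0.12 ± 0.10. For adrenergic and cholinergic receptors, 3 of 6 brighter members were higher. Chrm4 and Chrna4 differed by 0.20 ± 0.10 and 0.12 ± 0.07, and Chrm1, near 4 log2, by -0.11 ± 0.12. The opioid, endocannabinoid, oxytocin and cholecystokinin list had 2 of 7 brighter members higher. Its Cnr1, the cannabinoid receptor of cortical nerve endings, was at 11.98, 11.88 and 11.92 log2 in high startle rats, against 12.13, 12.20 and 11.92 in low startle rats (-0.15 ± 0.08, 95% interval -0.35 to 0.04), and Cckbr differed by 0.06 ± 0.04.

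Stress-response genes did not separate as a group, with 4 of 12 brighter members higher (33.3%) and a median of -0.03. Nr3c1, the glucocorticoid receptor, was at 9.89, 9.98 and 9.90 log2 in high startle rats and 10.01, 10.04 and 9.81 in low startle rats (-0.03 ± 0.07, 95% interval -0.20 to 0.14). Cdkn1a, a cell cycle inhibitor induced by glucocorticoids, had an unadjusted p under 0.05 in limma but lay near 3 log2, where differences were mostly positive over all dim genes (0.12 ± 0.04).

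Immediate-early genes, whose messages rise within minutes of neuronal activity, had 1 of 12 brighter members (8.3%) higher and a median of -0.14, with 0 of 17 at p under 0.05 in limma. Fos was at 8.06, 8.91 and 8.56 log2 in high startle rats, against 8.14, 9.08 and 9.59 in low startle rats (-0.43 ± 0.42). Arc, which acts at the synapse, was at 8.44, 9.66 and 9.35 log2 in high startle rats and 8.82, 9.72 and 10.30 in low startle rats (-0.47 ± 0.49). Groups overlapped for both, and rat 4 was highest. Egr2 was dim and did not overlap, at 4.85, 5.00 and 4.83 log2 in high startle rats and 5.01, 5.11 and 5.60 in low startle rats (-0.35 ± 0.16, 95% interval -0.76 to 0.07). Bdnf, a growth factor for neurons, differed by -0.23 ± 0.11 and Egr1 by -0.18 ± 0.10. Without rat 4 the median over all 17 members was -0.05, with 7 of 17 higher, and with the locomotion score as a covariate over all 10 rats it was 0.18, with 12 of 17 higher. The sign of this list therefore depended on whether locomotion was in the fit.

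The same genes differed far more among the middle rats than between the startle groups. Fos was at 7.42 and 4.91 log2 in rats 5 and 10, against 9.60 and 9.66 in rats 3 and 8. Arc was at 8.92 and 8.76 in rats 5 and 10, against 11.18 and 10.83 in rats 3 and 8. Over the 17 members, 2 were higher and 15 lower in rats 5 and 10, with a median of -0.67. Rats 5 and 10 scored 765 and 755 for startle, and rats 3 and 8 scored 687 and 624, so the 2 pairs were closer in startle than the high and low groups.

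Circadian clock genes run in a daily cycle in most tissues: Bmal1 and Clock form an activator that binds the E-box CACGTG and drives Per, Nr1d1, Dbp and Bhlhe41, and the Nr1d1 and ROR receptors feed back on Bmal1 through elements that hold AGGTCA. For the brighter clock genes of largest difference, chosen after their values were seen, the 250 bases before the gene start are shown in the RefSeq annotation of GRCr8, a genome of another rat strain. Capitals mark AGGTCA on either strand in Bmal1, at chr1:176766078-176766327 (plus strand), and CACGTG in Bhlhe41, at chr4:180569356-180569605 (minus strand). Neither motif was in this window of Dbp, at chr1:105312006-105312255 (plus strand).
Bmal1: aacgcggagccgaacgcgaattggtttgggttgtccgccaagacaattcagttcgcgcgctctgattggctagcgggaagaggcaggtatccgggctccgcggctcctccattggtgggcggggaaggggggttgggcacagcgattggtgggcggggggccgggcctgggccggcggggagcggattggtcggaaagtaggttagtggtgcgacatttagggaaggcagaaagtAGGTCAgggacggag
Dbp: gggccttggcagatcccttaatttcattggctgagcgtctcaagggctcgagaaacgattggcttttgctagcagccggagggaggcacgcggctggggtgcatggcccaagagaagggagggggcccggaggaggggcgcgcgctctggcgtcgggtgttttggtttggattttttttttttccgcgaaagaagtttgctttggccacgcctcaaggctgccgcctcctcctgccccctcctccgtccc
Bhlhe41: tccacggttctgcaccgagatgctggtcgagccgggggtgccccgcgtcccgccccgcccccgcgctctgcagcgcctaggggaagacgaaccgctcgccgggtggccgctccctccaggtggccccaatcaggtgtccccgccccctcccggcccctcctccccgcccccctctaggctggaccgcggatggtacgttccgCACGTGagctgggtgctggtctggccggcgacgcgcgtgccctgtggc
The match in Bmal1 began 15 bases before the start and that in Bhlhe41 48 bases before it. Among 33469 promoter windows of this length, 14.1% held AGGTCA on either strand and 5.59% held CACGTG. A match alone is therefore a description, and binding was not tested.

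Bmal1 was at 8.21, 7.69 and 7.91 log2 in high startle rats, against 8.28, 8.25 and 8.33 in low startle rats. The groups did not overlap, though rat 6 lay within 0.1 log2 of the low rats (-0.35 ± 0.13, 95% interval -0.68 to -0.02, adjusted p = 0.926), and the difference was -0.23 without rat 7. The unadjusted call held only without rat 6 among the fits that left out 1 rat. Dbp, an output gene of the clock, was at 9.27, 9.75 and 9.29 log2 in high startle rats and 8.94, 8.73 and 9.34 in low startle rats (0.44 ± 0.20, 95% interval -0.08 to 0.95). Per1, a clock repressor that glucocorticoids also induce, was at 6.14, 6.07 and 5.97 log2 in high startle rats and 5.17, 5.25 and 6.27 in low startle rats (0.50 ± 0.31). For both, rat 4 lay with the high startle rats and rats 1 and 2 below them. Bhlhe41, another repressor, was at 10.12, 10.36 and 9.90 log2 in high startle rats and 9.81, 9.76 and 10.08 in low startle rats (0.24 ± 0.14). Nr1d1, a repressor of Bmal1, lay near 2 log2, with a difference of 0.30 ± 0.14. Over the list, 8 of 13 brighter members (61.5%) were higher with a median of 0.02. The hour at which each rat was killed is not in the labels used here, and its part in these values was not tested.

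**Figure D5:**
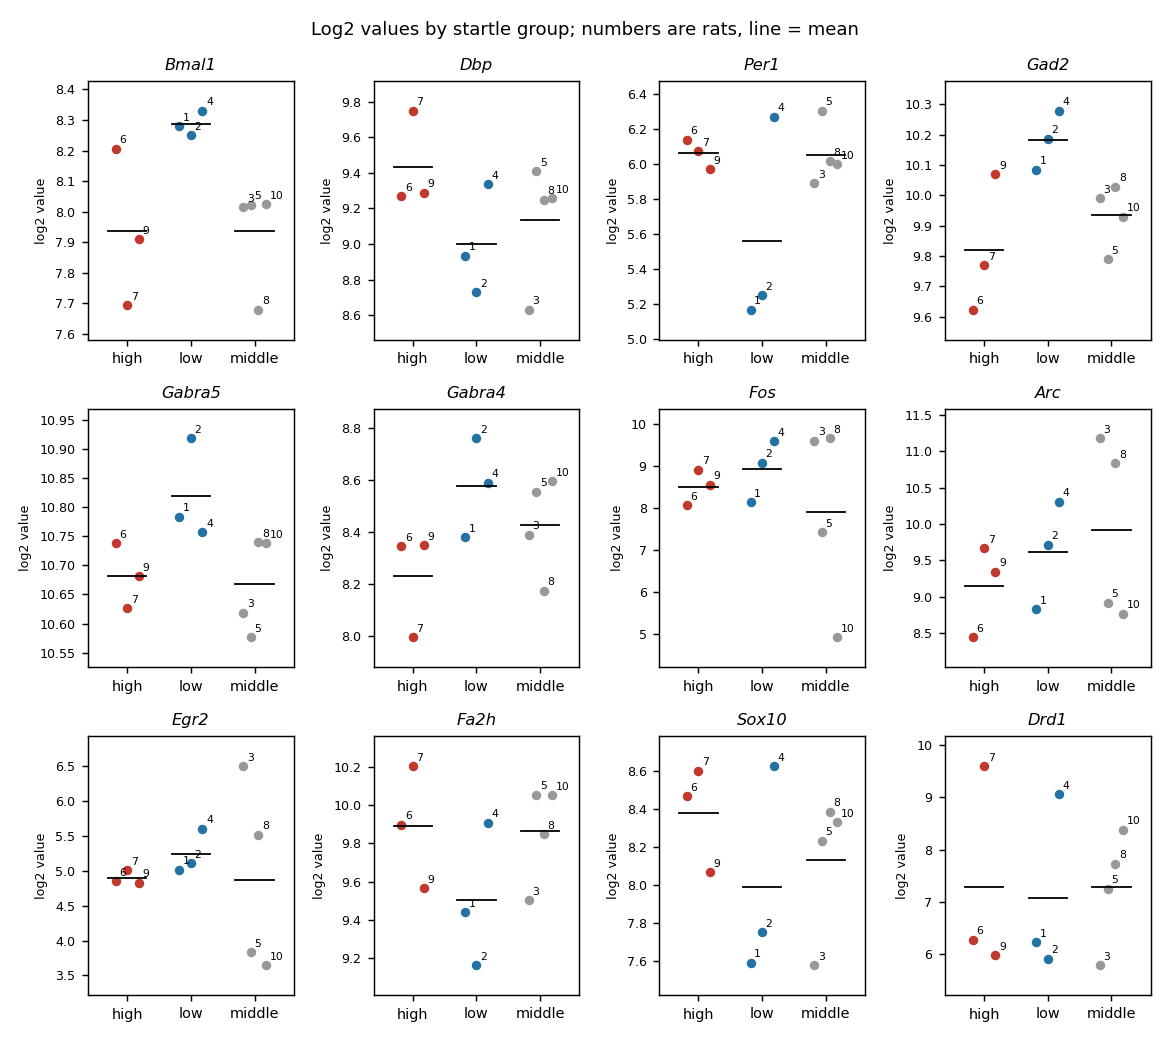
Log2 values of 12 genes in high, low and middle startle rats, 1 point per rat with its number and a line at the group mean. Bmal1, Gad2, Gabra5, Gabra4 and Egr2 had no overlap between high and low rats, rat 4 lay with the high rats for Dbp, Per1, Fa2h and Sox10, and Drd1 was highest in rats 7 and 4.

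Energy and protein synthesis genes were close to equal. Oxidative phosphorylation subunits had 8 of 30 brighter members higher (26.7%) and a median of -0.04, with all 31 differences between -0.09 and 0.13. The balance turned with scaling and with 1 rat: 9 of 31 were higher, but 22 of 31 after quantile normalization and 17 of 31 without rat 9. Atp5po of the ATP synthase differed by -0.08 ± 0.05 and Cox5a of cytochrome oxidase by 0.13 ± 0.09. Ribosomal proteins had 7 of 20 brighter members higher (35.0%) and a median of -0.01, with Rpl24 at -0.09 ± 0.09 and Rpl22 at -0.04 ± 0.06. Of all 22, 9 were higher, against 19 after quantile normalization, 20 without rat 9, 16 without rat 1 and 2 without rat 2 or rat 6, so the direction of neither list is a result.

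All 17 brighter myelin and oligodendrocyte genes were higher in high startle rats, with a median of 0.20, and 20 of all 21 measured members. None had a p under 0.05 in limma, and none had groups that did not overlap. The mean of the centred members was 0.18, 0.35 and -0.15 log2 in rats 6, 7 and 9, against -0.12, -0.28 and 0.26 in rats 1, 2 and 4, so rat 9 lay among the low rats and rat 4 among the high ones. Mbp, myelin basic protein, was at 14.73, 14.75 and 14.35 log2 in high startle rats and 14.52, 14.42 and 14.65 in low startle rats (0.08 ± 0.13). Mobp differed by 0.16 ± 0.24. The largest differences, chosen after their values were seen, were in Fa2h, which makes myelin lipids, and Sox10, the oligodendrocyte transcription factor, at 0.39 ± 0.25 and 0.39 ± 0.31. The list's median over all members was 0.16. It was 0.03 without rat 7 and 0.03 without rat 2, and 0.35 without rat 4 and 0.35 without rat 9, so single rats of either group moved it over 1.5 times. In the middle rats all 21 members were higher in rats 5 and 10, with a median of 0.31.

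Striatal projection neuron markers were highest in rats 7 and 4, with list scores of -0.36, 1.19 and -0.43 in high startle rats and -0.40, -0.44 and 0.76 in low startle rats. Their median was 0.06, but -0.23 without rat 7, 0.40 without rat 4 and 0.01 without both. Pde10a, a striatal phosphodiesterase, was at 11.92, 13.06 and 11.67 log2 in high startle rats and 12.05, 12.05 and 12.53 in low startle rats, and Bcl11b, a marker of striatal and deep layer neurons, differed by -0.02 ± 0.21. Meningeal and fibroblast genes stood out in rat 9, with scores of -0.38, -0.11 and 0.90 in high startle rats against 0.10, 0.08 and -0.11 in low startle rats. Ptgds, prostaglandin D synthase, was at 12.75, 13.34 and 14.34 log2 in high startle rats and 13.38, 13.57 and 13.26 in low startle rats, and Igfbp5 differed by 0.09 ± 0.10. The median of the 12 meningeal genes was 0.08, and -0.19 without rat 9, 0.01 without rat 4 and 0.27 without rat 6. Igf2 and Igfbp2, the 2 brighter members of the choroid plexus list, were also highest in rat 9, at 11.20 and 9.89 log2, and all 9 members of that list were higher. The other 7 were dim, where 84.9% of all genes were higher, and 7 of 9 were higher without rat 9 and 6 of 9 without rats 4 and 7. The part of these tissue differences in the gene results was not tested beyond leaving rats out.

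The other cell types did not separate. Of brighter astrocyte markers, 7 of 11 were higher with a median of 0.02, with Glul at -0.04 ± 0.08 and S100b at 0.03 ± 0.11. Over all 12 the median was 0.03, and -0.06 without rat 6. Microglia and macrophage markers had 4 of 5 brighter members higher and a median of 0.11. P2ry12 differed by 0.11 ± 0.12 and Ctss by -0.01 ± 0.11. Of brighter endothelial and pericyte markers, 2 of 7 were higher. Cldn5, of the tight junctions, was at 10.16, 9.64 and 9.78 log2 in high startle rats and 10.06, 9.83 and 10.08 in low startle rats, and Slco1a4 differed by -0.03 ± 0.09. Kdr, a receptor for vascular growth factor that was dim and chosen after its values were seen, was at 4.71, 4.26 and 4.60 log2 in high startle rats against 4.86, 4.97 and 4.85 in low startle rats (-0.37 ± 0.12, 95% interval -0.68 to -0.07). Oligodendrocyte precursor markers had 2 of 4 brighter members higher, with Bcas1 at 0.12 ± 0.18 and Ptprz1 at -0.01 ± 0.13. Haemoglobin beta, Hbb, differed by 0.09 ± 0.09 and the red cell anion exchanger Slc4a1 by 0.01 ± 0.03. Olfactory bulb markers had 1 brighter member, Reln, at -0.14 ± 0.23, and the dimmer Pax6 differed by 0.18 ± 0.36. Cortical layer markers were even: 2 of 8 brighter superficial layer genes and 4 of 11 deep layer genes were higher, with medians of -0.03 and -0.02. Mef2c and Lamp5 differed by -0.04 ± 0.07 and -0.01 ± 0.11, and Etv1, of deep layer output neurons, by -0.02 ± 0.09. Across the 28 lists, 5 of 421 measured genes (1.19%) had an unadjusted p under 0.05, against 2.22% of all genes tested: Gad2, Bmal1, Nsf and Kdr lower and Cdkn1a higher.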

How the data were processed

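The authors deposited log2 expression values per probe set, made with GCRMA under R 2.6.2 per the submitters' processing notes. GCRMA corrects background by probe sequence, normalises by quantiles, which forces array distributions together and can shift dim probes as a block, and summarises probes. The GCRMA release is not stated there. There were 31099 probe sets, whose values ran from 0.237 to 16.2, and 57 of them were controls and left out. The platform annotation gave 1 symbol for 20826 of the remaining 31042, of which 20758 matched RefSeq GRCr8 by gene number. It gave several symbols for 436 and none for 9780, and neither kind was tested. The probe set of highest mean over 10 arrays stood for each of 14217 genes.

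Rats were grouped by the startle score in the labels. High minus low startle was tested, 3 against 3 and two-sided, by lmFit and eBayes of limma 3.58.1 under R 4.3.3 (Benjamini-Hochberg over all genes, threshold 0.05), after tests on simulated data. The number of arrays limits the precision. Each rat is a separate animal. Behaviour scores were compared by exact permutation tests.

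Named genes were, among brighter genes whose groups did not overlap, the 8 of smallest p and the 6 of largest difference in each direction. Added were the 2 members of smallest p of each of 16 lists, the 2 of highest mean of each of 12 cell type lists, and a panel of 20 genes, of which 18 were measured. The rats, genes and lists were chosen with earlier results of these data known. A list score is the mean of the members' log2 values, each centred on its mean over the 10 rats. Alternatives changed centring, normalization, the level filter, the choice of probe set, the variance model, the rats included and locomotion as a covariate.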

Additional observations from a re-analysis of the deposited data

Results flagged for a closer look

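Among the middle startle rats, which the main tests did not use, Dele1 was at 8.96 log2 in rat 8 and at 9.15 to 9.18 in the other 3. The gap of rat 8 to the nearest rat was 0.865 of the group's range, above Dixon's 95% critical value of 0.829 for 4 samples. Of 31 groups of values examined in this way, chance would single out about 1 in 20. The groups of 3 were too small for this rule.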

How the results depend on the processing

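No gene passed an adjusted p of 0.05 under any of the 15 alternative settings of limma. The lowest adjusted p was 0.0543, with all 10 rats in 3 groups and locomotion as a covariate. Counts at unadjusted p under 0.05 were 108 higher and 207 lower in high startle rats. They were 350 and 80 after quantile normalization, 57 and 115 among the brighter 50% of genes (fewer genes were tested), 97 and 133 with the trend and robust options, 234 and 385 without rats 4 and 7, and 311 and 925 with the locomotion covariate. The cause of these moves was not tested, apart from the smaller number of genes. Leaving out single rats gave 94 to 252 higher and 138 to 480 lower genes. The highest count of lower genes came without rat 4 and of higher genes without rat 9. Median centring, the mean of all probe sets, the probe set chosen over 6 arrays and all 10 rats in 3 groups kept both counts within 1.5 times. Of the settings of single named genes, 1198 kept direction and side of the unadjusted threshold, 62 lost it, 63 crossed it, and 2 of called genes changed sign. Those were Tmem33 at -0.082 and Sec63 at -0.042, both with the locomotion covariate, and the cause was not tested. A further 73 values, all of genes with no call, changed sign. Counted with Tmem33 and Sec63, 31 genes changed sign in 75 settings, among them Rbm15 at 0.04 with the probe set chosen over 6 arrays. No paired analysis was possible because the 2 groups share no replicate numbers and no rat was in both. With 3 rats a group, dim genes, spike-in levels and tissue content limit what can be read, and startle and locomotion cannot be told apart.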
